A study of Mus musculus with 6 samples.

Results

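The 40 genes described here encode the antioxidant programme controlled by the transcription factor NRF2, the enzymes of glutathione and thioredoxin chemistry, and the pentose phosphate enzymes that supply them with NADPH. They were chosen by gene symbol, with earlier results of these data known, and all 40 were found among the 24054 genes of the deposited tables. Shares of all tested genes set beside them below are therefore descriptive. Sequencing of polyadenylated RNA in 6 libraries of macrophages grown from mouse bone marrow compared Kindlin3-integrin mutant with wild-type cells under oxidised low-density lipoprotein (oxLDL), the lipid-laden particle that macrophages take up in atherosclerotic plaques. Marrow of C57BL/6 mice, either wild type or C57BL/6-Kindlin3-integrin mutant (titled KI), was kept in L929-conditioned medium for 7 days. The cells then received 50 µg/ml oxLDL or nothing, with an incubation of 24 hours. The mutant had 2 libraries without and 2 with oxLDL, wild type had 1 of each, and no other treatment is named for any group. The sources used here do not say whether the 2 mutant libraries of a group came from separate mice or dishes, so p-values measure the spread between these libraries, which may be technical. The sources used here also do not say what the mutation is, and fewer cells of a type and less RNA per cell cannot be told apart in bulk samples.

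NRF2, encoded by Nfe2l2, is held in the cytoplasm by KEAP1, which presents it for degradation. Oxidants and electrophiles, oxidised lipids among them, modify cysteines of KEAP1, so that NRF2 accumulates, enters the nucleus and binds antioxidant response elements with small MAF partners. Its control is therefore largely at the protein level, and its activity is usually read from its target transcripts. Glutathione and thioredoxin reduce peroxides and disulfides, and both are recharged by NADPH from the pentose phosphate pathway.

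The promoters of 6 genes are shown as examples of those that hold the core of the antioxidant response element, TGACNNNGC. They are a choice from a longer list, given after the sequences, and all 6 genes rose with oxLDL in the mutant. Each line gives the 250 bases before the RefSeq transcription start in mouse build GRCm38.p6, 5′ to 3′ on the gene's strand (the + strand in each case), with the core in capitals. Where the core lies on the opposite strand the capitals show its reverse complement.
Prdx1: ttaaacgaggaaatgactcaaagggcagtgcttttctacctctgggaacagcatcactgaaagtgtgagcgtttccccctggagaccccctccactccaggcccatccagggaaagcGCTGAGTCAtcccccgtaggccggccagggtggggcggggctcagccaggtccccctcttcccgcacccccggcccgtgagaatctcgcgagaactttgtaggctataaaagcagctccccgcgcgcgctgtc
Procr: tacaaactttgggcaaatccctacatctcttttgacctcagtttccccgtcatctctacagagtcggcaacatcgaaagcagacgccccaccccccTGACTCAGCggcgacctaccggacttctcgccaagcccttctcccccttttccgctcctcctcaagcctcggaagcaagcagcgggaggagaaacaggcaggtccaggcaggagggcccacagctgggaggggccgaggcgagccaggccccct
Mt2: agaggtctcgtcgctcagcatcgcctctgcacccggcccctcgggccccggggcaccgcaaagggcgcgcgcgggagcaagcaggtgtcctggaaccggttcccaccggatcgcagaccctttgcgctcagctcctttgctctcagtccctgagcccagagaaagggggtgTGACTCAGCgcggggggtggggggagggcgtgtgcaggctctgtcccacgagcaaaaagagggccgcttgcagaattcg
Gclm: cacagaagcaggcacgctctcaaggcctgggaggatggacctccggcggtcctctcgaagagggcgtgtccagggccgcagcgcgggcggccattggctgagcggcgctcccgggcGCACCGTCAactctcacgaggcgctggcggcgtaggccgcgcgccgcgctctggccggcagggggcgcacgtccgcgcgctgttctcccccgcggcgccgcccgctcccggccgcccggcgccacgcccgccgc
Txnrd1: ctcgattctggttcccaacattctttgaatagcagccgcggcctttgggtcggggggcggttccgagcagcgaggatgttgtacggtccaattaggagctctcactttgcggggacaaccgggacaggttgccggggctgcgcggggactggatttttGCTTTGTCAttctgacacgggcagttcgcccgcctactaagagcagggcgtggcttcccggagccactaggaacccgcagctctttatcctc
Gsta3: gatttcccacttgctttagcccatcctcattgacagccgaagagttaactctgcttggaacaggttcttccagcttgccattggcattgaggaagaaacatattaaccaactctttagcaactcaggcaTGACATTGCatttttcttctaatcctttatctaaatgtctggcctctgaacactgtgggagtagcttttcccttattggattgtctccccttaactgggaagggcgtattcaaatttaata
On their forward strand Procr at chr2:155750967-155751216 and Mt2 at chr8:94172368-94172617 have the core TGACTCAGC, which also contains the AP-1 letters TGACTCA, and Prdx1 at chr4:116685349-116685598 has the same 9 letters on the reverse strand. Gsta3 at chr1:21240335-21240584 has TGACATTGC, while Gclm at chr3:122245307-122245556 and Txnrd1 at chr10:82858956-82859205 have TGACGGTGC and TGACAAAGC on the reverse strand. The core starts 133 bases before the start site in Prdx1, 154 in Procr, 79 in Mt2, 134 in Gclm, 92 in Txnrd1 and 121 in Gsta3. Of the 40 genes 34 had a RefSeq promoter entry, with up to 4 entries for a gene. Of these, 11 held the core on either strand in at least 1 entry, against 10.2% of all 32851 promoter windows of that length. A gene with several entries has more windows that can match, so counts by gene and shares by window are not like for like. The form TGACTCAGC occurred in 3 of the 34 genes and in 0.390% of all windows, and it was singled out after the 3 matches were seen. The other genes with the core were Nfe2l2, G6pdx, Mgst1, Sod1 and Ugdh. With oxLDL in the mutant G6pdx and Mgst1 rose, Ugdh fell, and Nfe2l2 and Sod1 did not pass. Among genes without the core in this window, Srxn1, Gstm1, Nqo1 and Cat rose, while Gpx1 and Sod2 fell. The other promoter entries of Txnrd1 lacked the core. A match describes these letters in this window and is not evidence of binding.

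Total counts ran from 11281692 in a mutant untreated library to 24273551 in a mutant oxLDL library. Levels are given as CPM, read counts scaled to a common library size after TMM scaling, which aligns libraries by a trimmed average of their gene ratios. Fermt3, the gene of kindlin-3, had 403 CPM in wild type untreated, 241 and 249 CPM in the mutant untreated, and with oxLDL 188 CPM in wild type and 146 and 153 CPM in the mutant. Of 10 macrophage markers 9 were in the table, each at 16.1 CPM or more in every library. Adgre1 was missing, and the levels of the 9 were not constant. With oxLDL Fcgr1 fell from 269 to 27.8 CPM in wild type and from 219 and 165 to 23.7 and 16.1 CPM in the mutant. Cd68 rose from 858 to 1801 CPM in wild type and from 1337 and 966 to 2136 and 1884 CPM in the mutant. Untreated, Itgam measured 2566 CPM in wild type and 1111 and 1103 CPM in the mutant. Lyz2 measured 8900 CPM against 20971 and 15491 CPM. The 35 markers set for pancreas summed to 290 CPM in wild type untreated and to 215 and 171 CPM in the oxLDL libraries of the mutant, with 2 of the 35 at 0 counts in each of these, against 1.98 to 3.47 CPM in the others, where 31 to 33 were at 0. The 8 measured neutrophil markers summed to 39.4 CPM in wild type untreated and to 0.706 to 2.24 CPM elsewhere. Pancreatic sums thus differed between treatments within each genotype as well as between genotypes. The part of these transcripts in the differences between treatments or genotypes was not tested.

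In mutant macrophages 30 of the 40 genes rose with oxLDL, 3 fell and 7 did not pass, at an adjusted p under 0.05 in edgeR's quasi-likelihood test over all genes. Of all 12689 genes tested, 35.6% were called, 16.5% higher and 19.1% lower. The rises ranged from 1.42-fold to 15.3-fold, and 26 of the 33 changes were at least 2-fold. The median log2 fold change was 1.38 over the 40 genes and 0.01 over all tested genes. Counting libraries instead, all 3 oxLDL libraries lay above all 3 untreated libraries for 31 of the 40 genes (24.5% of all tested genes) and below them for 3 (23.3%), and the remaining 6 overlapped. In wild type, where 1 library stands against 1 and changes are described by size from at least 5 CPM in either library, 28 of 39 genes were at least 2-fold higher with oxLDL and 2 were at least 2-fold lower, against 7.92% and 11.7% of 9840 genes (19.6% in either direction). All 40 genes passed the expression filter, but Gsta4 did so through the wild type oxLDL library alone.

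**Figure D1:**
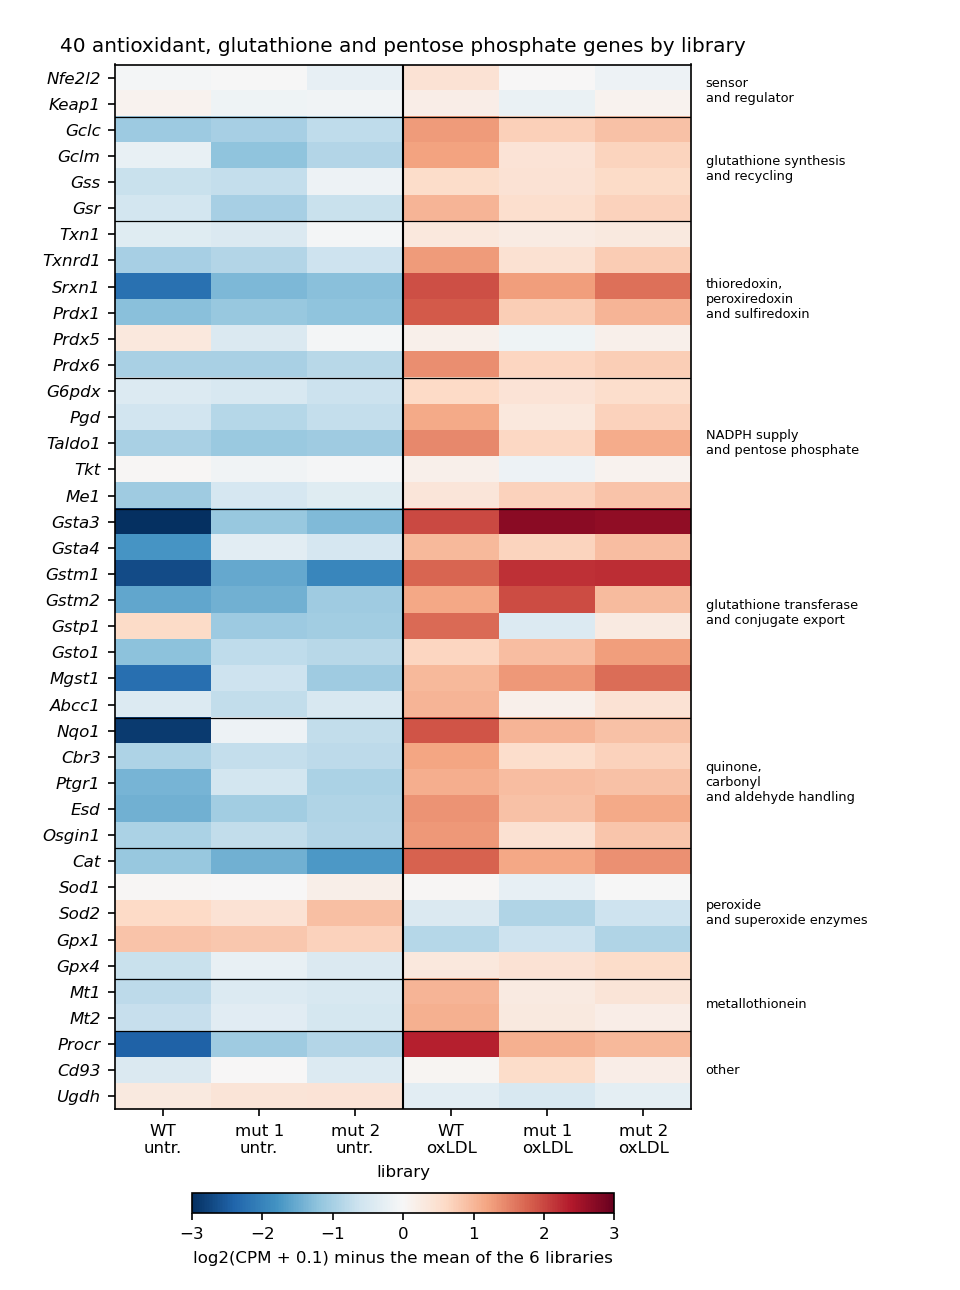
Level of the 40 genes in each of the 6 libraries, as log2(CPM + 0.1) minus the gene's mean over the libraries, with colours ending at -3 and 3; columns are libraries, rows are genes grouped by role, and the vertical line divides untreated from oxLDL. Most rows turn from blue to red at that line, while Gpx1, Sod2 and Ugdh turn the other way and Nfe2l2, Keap1, Tkt and Sod1 stay pale.

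The regulators themselves moved little in the mutant. Nfe2l2 measured 330 and 281 CPM in mutant untreated, 338 and 302 CPM in mutant oxLDL, 320 CPM in wild type untreated and 451 CPM in wild type oxLDL. The mutant libraries of both treatments overlapped, with a log2 change of 0.07 ± 0.12 (SE, adjusted p = 0.710). The wild type oxLDL library was the highest of the 6. The wild-type ratio was 1.41, with a 95% exact interval of 1.36 to 1.46 for counting error only. Keap1 measured 45.8 and 46.6 CPM in mutant untreated, 43.8 and 53.4 CPM in mutant oxLDL, 54.0 CPM in wild type untreated and 57.5 CPM in wild type oxLDL. Its treatments overlapped as well, with a log2 change of 0.07 ± 0.12 in the mutant (adjusted p = 0.693).

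Glutathione is made by glutamate-cysteine ligase, a catalytic subunit (Gclc) with a modifier subunit (Gclm), followed by glutathione synthetase (Gss), and oxidised glutathione is reduced by glutathione reductase (Gsr). All 4 genes rose in the mutant, by 1.89-fold to 3.21-fold. Gclc measured 26.0 and 30.6 CPM in mutant untreated, 85.7 and 96.4 CPM in mutant oxLDL, 24.5 CPM in wild type untreated and 128 CPM in wild type oxLDL. The untreated libraries lay close together, and after oxLDL the wild-type library was the highest. Its log2 fold change was 1.68 ± 0.13 in the mutant (adjusted p = 0.000599), and the wild-type ratio was 5.23, with a 95% exact interval of 4.73 to 5.79 that covers counting error only. Gclm measured 111 and 137 CPM in mutant untreated, 341 and 405 CPM in mutant oxLDL, 220 CPM in wild type untreated and 590 CPM in wild type oxLDL. Both mutant libraries lay below wild type in either treatment, while the fold of induction was similar, 3.01 in the mutant and 2.69 in wild type. Gss had the smallest rise of the 4, a log2 change of 0.92 ± 0.21 (adjusted p = 0.0210) that did not hold without mutant untreated replicate 1 (adjusted p = 0.0708).

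Peroxiredoxins reduce hydrogen peroxide and lipid peroxides, and sulfiredoxin (Srxn1) reactivates some overoxidised peroxiredoxins. Thioredoxin (Txn1) with its reductase (Txnrd1) supplies electrons to many peroxiredoxins. Of these 6 genes 5 rose, and Prdx5 did not pass. Srxn1 measured 76.9 and 81.3 CPM in mutant untreated, 470 and 613 CPM in mutant oxLDL, 41.5 CPM in wild type untreated and 748 CPM in wild type oxLDL. Wild type was thus the lowest library before and the highest after oxLDL, a ratio of 18.0 (interval 16.8 to 19.4) against a 6.85-fold rise in the mutant. Prdx1, a main cytosolic peroxiredoxin, measured 956 and 905 CPM in mutant untreated, 3486 and 4201 CPM in mutant oxLDL, 874 CPM in wild type untreated and 7431 CPM in wild type oxLDL. Its untreated levels were close in all 3 libraries, and the mutant rise was 4.13-fold (adjusted p = 0.000850) against a wild-type ratio of 8.50. Txnrd1 and Prdx6 rose 2.58-fold and 3.04-fold in the mutant. Txn1 rose least, a log2 change of 0.50 ± 0.13 (adjusted p = 0.0332), which did not hold without mutant untreated replicate 1 (adjusted p = 0.0756) or mutant oxLDL replicate 2 (0.0802). Prdx5, a peroxiredoxin found in mitochondria and peroxisomes, measured 52.7 and 68.9 CPM in mutant untreated, 65.0 and 80.0 CPM in mutant oxLDL, 89.0 CPM in wild type untreated and 79.1 CPM in wild type oxLDL, with overlap between treatments (adjusted p = 0.290).

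NADPH is generated by glucose-6-phosphate dehydrogenase (G6pdx) and phosphogluconate dehydrogenase (Pgd), the oxidative arm of the pentose phosphate pathway, and by malic enzyme (Me1), while transaldolase (Taldo1) and transketolase (Tkt) run the carbon rearrangements that follow. Of these 5 genes 4 rose in the mutant, and Tkt did not pass. Taldo1 measured 119 and 123 CPM in mutant untreated, 400 and 559 CPM in mutant oxLDL, 132 CPM in wild type untreated and 698 CPM in wild type oxLDL. Treatments were well apart, and the mutant log2 fold change was 1.99 ± 0.17 (adjusted p = 0.000915). Tkt, the partner enzyme of Taldo1, measured 351 and 365 CPM in mutant untreated, 336 and 407 CPM in mutant oxLDL, 384 CPM in wild type untreated and 418 CPM in wild type oxLDL. Its mutant libraries overlapped between treatments, with a log2 change of 0.05 ± 0.12 (adjusted p = 0.775). G6pdx, Pgd and Me1 rose 2.04-fold, 2.47-fold and 2.32-fold, and their wild-type ratios were 2.01, 3.23 and 2.72. Reads of Me1 are less certain, since 16.4% of its 75-base stretches occur in other mouse genes.

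Glutathione transferases join glutathione to electrophiles, and Abcc1 exports the conjugates. This group held the largest rises, and 7 of its 8 genes passed in the mutant. Gsta3 measured 9.53 and 8.35 CPM in mutant untreated, 139 and 134 CPM in mutant oxLDL, 0.614 CPM in wild type untreated and 83.0 CPM in wild type oxLDL. The wild-type library was the lowest in either treatment, and the distance was far greater before oxLDL than after it. In the mutant the rise was 15.3-fold, a log2 change of 3.94 ± 0.12 (adjusted p = 0.000168), and in wild type the ratio was 135 (interval 77.1 to 262), resting on 12 counts in the untreated library. Gstm1 measured 51.1 and 38.2 CPM in mutant untreated, 680 and 687 CPM in mutant oxLDL, 23.0 CPM in wild type untreated and 500.4 CPM in wild type oxLDL. It too was lowest in wild type in either treatment. Gstm2, a close relative at low level, measured 0.794 and 1.06 CPM in mutant untreated, 9.21 and 4.56 CPM in mutant oxLDL, 0.716 CPM in wild type untreated and 5.30 CPM in wild type oxLDL. Its rise of 7.33-fold in the mutant carried a wide error (log2 fold change 2.87 ± 0.46, adjusted p = 0.00613), and the log2 change was 2.27 without mutant oxLDL replicate 1 and 1.98 with limma on log2 of the deposited signal plus 1. Of the 75-base stretches of Gstm1 11.7% are shared with other genes, 7.51% with Gstm2-ps1, so part of its counts could be divided differently. Gstm2 shares 1.845% of its stretches, with Gm12499.

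Mgst1, a membrane-bound transferase, measured 59.3 and 43.5 CPM in mutant untreated, 222 and 289 CPM in mutant oxLDL, 18.8 CPM in wild type untreated and 179 CPM in wild type oxLDL. Its wild-type library was the lowest of each treatment. Gsto1, an omega class transferase, measured 63.7 and 61.0 CPM in mutant untreated, 204 and 257 CPM in mutant oxLDL, 45.9 CPM in wild type untreated and 168 CPM in wild type oxLDL, so that the fold was alike, 3.70 in the mutant and 3.65 in wild type. Gstp1 had the opposite genotype order, with 6.09 and 6.30 CPM in mutant untreated, 9.73 and 15.7 CPM in mutant oxLDL, 19.4 CPM in wild type untreated and 42.2 CPM in wild type oxLDL. Every mutant library lay below both wild-type libraries. Its rise in the mutant (log2 fold change 1.03 ± 0.26, adjusted p = 0.0255) did not hold without mutant untreated replicate 1 (adjusted p = 0.0976) or replicate 2 (0.103), and 29.2% of its stretches are shared with Gstp2. Gsta4 was near the limit of detection, with 2 and 2 counts in mutant untreated, 11 and 11 in mutant oxLDL, 0 in wild type untreated and 9 with oxLDL. It did not pass in the mutant (adjusted p = 0.151) and was at least 3.75-fold higher with oxLDL in wild type, against a floor of 3 counts in the untreated library. Abcc1 rose 1.88-fold in the mutant (adjusted p = 0.00576) and had a wild-type ratio of 2.71.

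The genes grouped under quinone, carbonyl and aldehyde handling, with the stress-induced Osgin1 among them, rose in 5 of 5 cases in the mutant. The range was 2.61-fold to 3.97-fold there, and the wild-type ratios ran from 4.35 to 31.1. Nqo1, the quinone reductase often used as a readout of NRF2, measured 4.59 and 3.04 CPM in mutant untreated, 10.5 and 9.51 CPM in mutant oxLDL, 0.614 CPM in wild type untreated and 19.1 CPM in wild type oxLDL. Wild type was the lowest library before oxLDL and the highest after it. The mutant log2 fold change was 1.40 ± 0.24 (adjusted p = 0.00741), and the wild-type ratio was 31.1 (interval 17.6 to 60.9), again from 12 counts in the untreated library. Esd, an esterase that completes glutathione-dependent formaldehyde removal, measured 198 and 220 CPM in mutant untreated, 752 and 906 CPM in mutant oxLDL, 151 CPM in wild type untreated and 1035 CPM in wild type oxLDL. It showed the same order with a smaller distance, 3.97-fold in the mutant against a ratio of 6.83. The carbonyl reductase gene Cbr3, the prostaglandin and alkenal reductase gene Ptgr1 and the oxidative stress-induced gene Osgin1 rose 2.61-fold, 3.10-fold and 2.78-fold in the mutant, with wild-type ratios of 4.35, 5.56 and 4.84.

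The classical peroxide and superoxide enzymes divided. Cat, the peroxisomal catalase, measured 288 and 238 CPM in mutant untreated, 1766 and 2039 CPM in mutant oxLDL, 355 CPM in wild type untreated and 2669 CPM in wild type oxLDL. The fold was nearly the same in either genotype, 7.23 in the mutant (adjusted p = 0.000362) and 7.51 in wild type, and the mutant lay below wild type in either treatment. Gpx1, the cytosolic glutathione peroxidase, went the other way, with 277 and 254 CPM in mutant untreated, 103 and 84.7 CPM in mutant oxLDL, 286 CPM in wild type untreated and 87.3 CPM in wild type oxLDL. It fell 2.84-fold in the mutant (adjusted p = 0.000790). Sod2, the mitochondrial superoxide dismutase and a known NF-kB target, measured 105 and 144 CPM in mutant untreated, 41.4 and 50.5 CPM in mutant oxLDL, 117 CPM in wild type untreated and 57.5 CPM in wild type oxLDL. It fell 2.71-fold in the mutant (adjusted p = 0.00275), and 16.2% of its stretches are shared with other genes. Sod1, the cytosolic dismutase, measured 187 and 208 CPM in mutant untreated, 156 and 182 CPM in mutant oxLDL, 188 CPM in wild type untreated and 190 CPM in wild type oxLDL, and it did not pass (adjusted p = 0.188). Gpx4, the phospholipid peroxidase that restrains ferroptosis, rose 1.76-fold in the mutant (adjusted p = 0.00336) with a wild-type ratio of 1.98, although 29.8% of its stretches recur in other genes.

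Metallothioneins bind zinc and other metals through their many cysteines. Mt1 measured 36.2 and 34.3 CPM in mutant untreated, 58.3 and 62.6 CPM in mutant oxLDL, 27.6 CPM in wild type untreated and 97.5 CPM in wild type oxLDL. Mt2 followed it, with 13.8 and 12.1 CPM in mutant untreated, 21.6 and 20.3 CPM in mutant oxLDL, 10.9 CPM in wild type untreated and 37.1 CPM in wild type oxLDL. In either gene wild type was the lowest library before and the highest after oxLDL. The rises in the mutant were 1.72-fold and 1.62-fold (adjusted p = 0.00291 and 0.0110), and the wild-type ratios were 3.53 and 3.40. The Mt2 rise was lost without mutant untreated replicate 2 (adjusted p = 0.0732).

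The last 3 members lie outside these chemical roles. Procr, the endothelial protein C receptor gene, measured 11.6 and 13.3 CPM in mutant untreated, 50.9 and 47.7 CPM in mutant oxLDL, 4.45 CPM in wild type untreated and 124 CPM in wild type oxLDL. The mutant libraries lay above wild type before oxLDL and below it after, with a rise of 3.96-fold in the mutant (adjusted p = 0.000384) and a wild-type ratio of 27.8 (interval 22.4 to 34.8). Cd93, a surface lectin-like receptor gene, measured 747 and 557 CPM in mutant untreated, 1085 and 844 CPM in mutant oxLDL, 545 CPM in wild type untreated and 770 CPM in wild type oxLDL. Its oxLDL libraries all lay above the untreated ones, but the mutant change did not pass (log2 fold change 0.57 ± 0.19, adjusted p = 0.0692). It did pass with DESeq2 (adjusted p = 0.0179). Of 12 alternatives 5 called it, and its log2 fold change ran from 0.37 to 0.81 over all 12. Ugdh, which makes UDP-glucuronate for glucuronidation, measured 189 and 191 CPM in mutant untreated, 103 and 117 CPM in mutant oxLDL, 177 CPM in wild type untreated and 117 CPM in wild type oxLDL, and it fell 1.72-fold in the mutant (adjusted p = 0.00273).

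**Figure D2:**
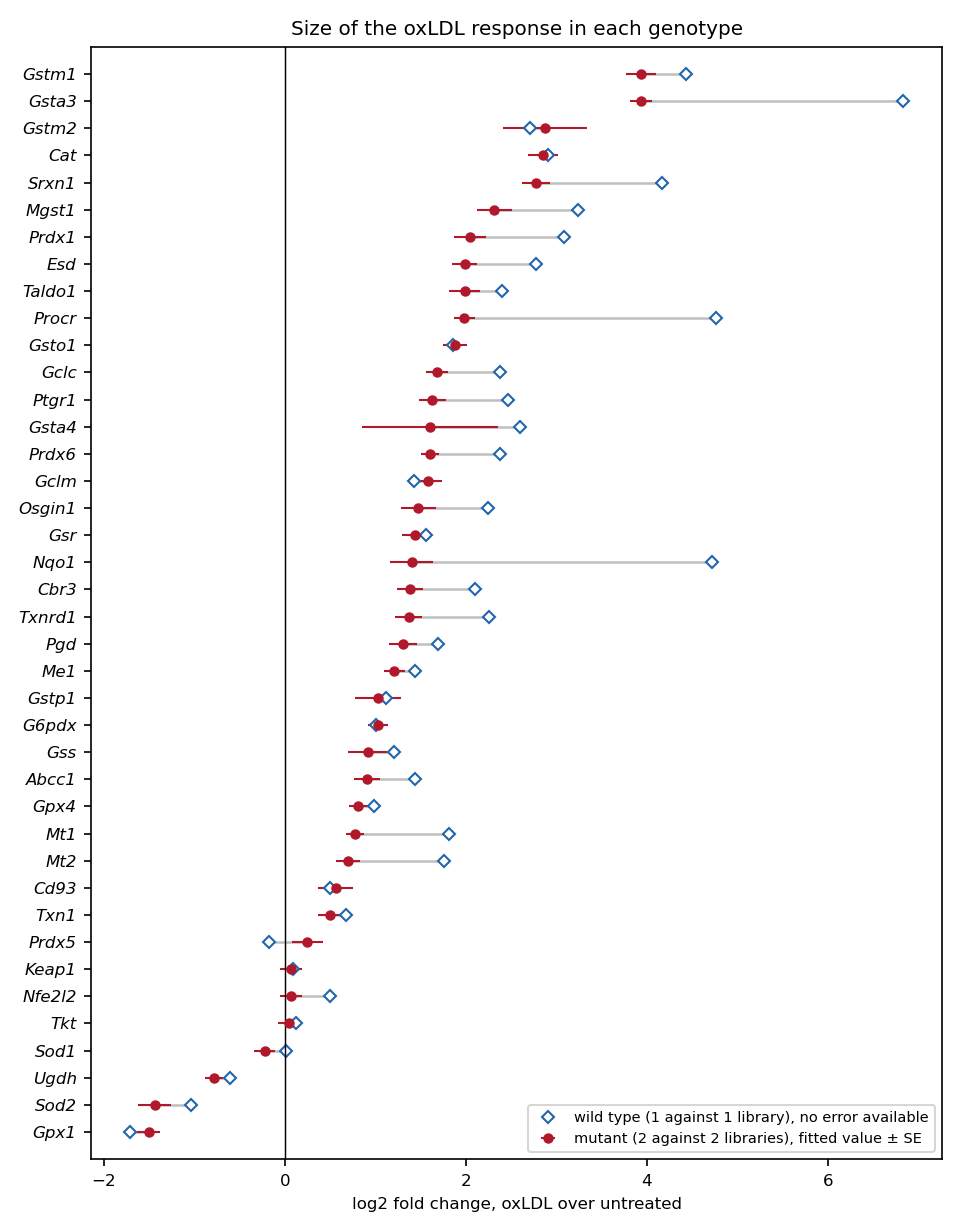
log2 fold change of oxLDL over untreated for each of the 40 genes, with the mutant value as a filled circle (bar, SE; 2 against 2 libraries) and the wild-type value as an open diamond (1 against 1 library, prior count of 2, no error). The diamond lies to the right of the circle for most genes and farthest for Gsta3, Nqo1 and Procr; the diamond of Gsta4 depends on the prior count because the untreated library has 0 counts.

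The next comparison asked whether the size of induction differed between genotypes. Gsta3 and Procr were called, both with the larger response in wild type, and the other 38 genes did not pass; of all tested genes 0.489% were called, 0.299% with the lower response in the mutant. For Gsta3 the difference of log2 fold changes, mutant minus wild type, was -3.13 ± 0.26 (adjusted p = 0.0140), without mutant untreated replicate 1 it was -3.01 (adjusted p = 0.0501), and with limma on log2 of the deposited signal plus 1 it was -1.90. For Procr it was -2.81 ± 0.21 (adjusted p = 0.0140). Nqo1 had a difference of -3.54 ± 0.48 that did not pass (adjusted p = 0.0609). Srxn1 (-1.40 ± 0.26) and Mt1 (-1.04 ± 0.17) did not pass either, at adjusted p of 0.143 and 0.121. With DESeq2 all 3 passed, at adjusted p of 0.000543 for Nqo1, 0.000299 for Srxn1 and 0.0294 for Mt1. In edgeR the differences of Nqo1 and Srxn1 were -3.61 and -1.22 without mutant oxLDL replicate 1, and -3.47 and -1.60 without replicate 2. Of 11 alternatives 6 called Nqo1, 5 called Srxn1 and 2 called Mt1. In the same model the signed log2 fold change was higher in wild type for 34 of the 40 genes (46.5% of all tested genes). Without Gsta4, which passed the filter only through wild type oxLDL, it was higher for 33 of the 39. The 34 include Sod2 and Ugdh, which fell in either genotype and fell less in wild type. Of the 30 genes that rose in the mutant 27 had the higher value in wild type, against 45.0% of all 2090 such genes. The median fold over the 40 genes was 2.59 in the mutant and 3.47 in wild type, with Gsta4 at its fitted value or at its bound. Of the genes that rose, Gstm2, Gsto1, G6pdx and Cat had the differences nearest 0, between -0.06 and 0.03. Each wild-type arm is 1 library and is assumed in this fit to vary like the mutant pairs.

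**Figure D3:**
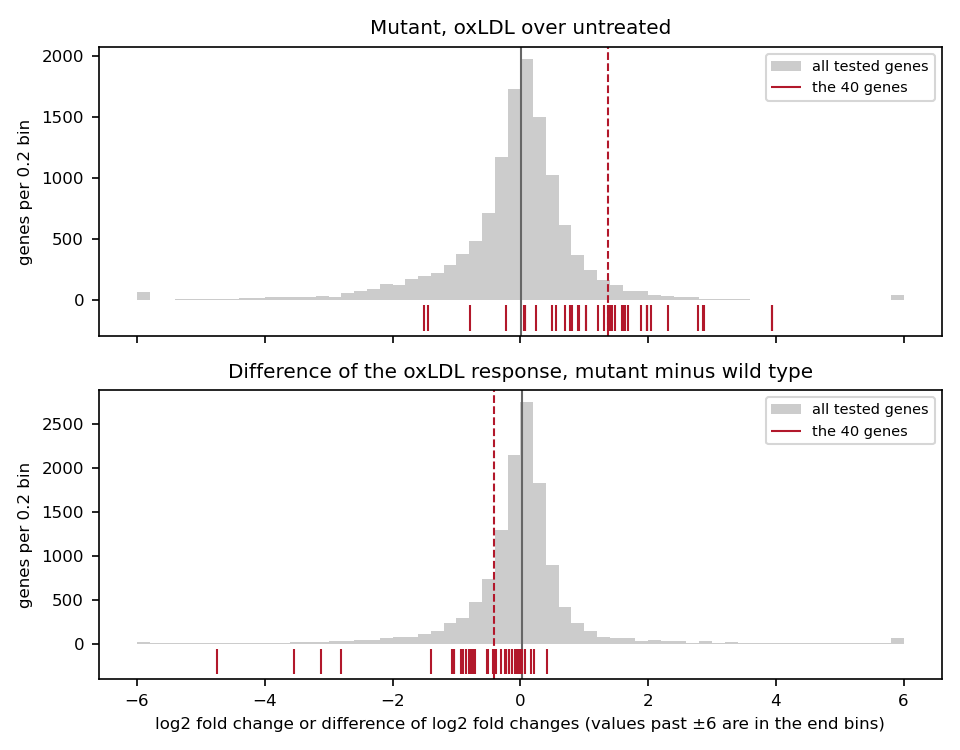
Histograms of the mutant oxLDL response (top) and of the difference of responses, mutant minus wild type (bottom) for all 12689 tested genes, in bins of 0.2 log2 units, with the 40 genes as red ticks below the axis, the median of all genes as a grey line and that of the 40 genes as a dashed red line. The dashed line lies at 1.38 in the top panel and at -0.41 in the bottom panel, and the grey lines lie at 0.01 and 0.03.

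Levels were then compared between genotypes within each treatment, in comparisons that share their libraries with those above. Without oxLDL 6 of the 40 genes were called higher in the mutant (4.24% of all tested genes) and 2 lower (2.82%), 7.06% of all genes in either direction; with library size alone in place of TMM 8 were higher and 1 was lower. Those higher were Gsta3, by a log2 change of 3.84 ± 0.23 (adjusted p = 0.00493), Nqo1 by 2.61 ± 0.40 (0.0289), Procr by 1.48 ± 0.17 (0.0158), Mgst1 by 1.45 ± 0.26 (0.0346), Gstm1 by 0.95 ± 0.20 (0.0472) and Srxn1 by 0.93 ± 0.19 (0.0458). Those lower were Gstp1, by -1.64 ± 0.29 (adjusted p = 0.0347), and Gclm, by -0.82 ± 0.18 (0.0498). Only Gsta3 remained called without mutant untreated replicate 1, and 5 of the 8 remained without replicate 2, where the calls of Gclm (adjusted p = 0.0613), Srxn1 (0.119) and Gstp1 (0.103) were lost. With limma on log2 of the deposited signal plus 1 the differences were 2.61 for Gsta3 and 1.55 for Nqo1. Counting libraries, both untreated mutant libraries lay above wild type for 22 genes (38.7% of all tested genes) and below it for 12 (42.4%). The wild type untreated library also held pancreatic and neutrophil transcripts, at the sums given above, while the untreated mutant libraries held few. Their part was not tested.

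With oxLDL both mutant libraries lay below wild type for 28 of the 40 genes (37.5% of all tested genes) and above it for 7 (38.8%). Not all of the 28 had changed their order: Gclm, Cat and Gstp1, among others, were below wild type without oxLDL too. Only Procr was called among the 40 genes, lower in the mutant by -1.32 ± 0.13 on the log2 scale (adjusted p = 0.0293; 0.0598 without mutant untreated replicate 1), where 0.481% of all genes were called, 0.299% higher and 0.181% lower. Prdx1 (-0.95 ± 0.20, adjusted p = 0.131), Prdx6 (-0.71 ± 0.12, 0.0874) and Mt1 (-0.69 ± 0.12, 0.0899) were among those that did not pass. Gsta3 was the reverse, higher in both mutant libraries at 0.72 ± 0.13 (adjusted p = 0.0949). So were Gstm1, Mgst1, Gsto1, Me1, Gpx4 and Cd93, which did not pass either. With DESeq2 Prdx1, Prdx6, Mt1 and Gsta3 passed, at adjusted p from 4.33e-06 for Prdx1 to 0.0257 for Mt1. Of 11 alternatives 2 called Prdx1, and 3 called each of Prdx6, Mt1 and Gsta3. The 40 genes together amounted to 5242 CPM in wild type untreated and to 5396 and 5232 CPM in mutant untreated, and with oxLDL to 20122 CPM in wild type and to 13256 and 15117 CPM in the mutant. These sums weigh the most abundant genes most. Prdx1 alone made up 7431 CPM of the wild type oxLDL sum and 3486 and 4201 CPM of the mutant ones. With oxLDL the pancreatic markers summed to 215 and 171 CPM in the mutant against 1.98 CPM in wild type, and their part was not tested.

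Across both treatments, in a model with genotype and treatment, 2 of the 40 genes were called lower in the mutant and 4.05% of all tested genes were called, 2.54% higher and 1.51% lower. Gstp1 differed by -1.69 ± 0.19 (adjusted p = 0.0171) and Gclm by -0.74 ± 0.13 (adjusted p = 0.0380). Both calls were lost without mutant untreated replicate 1 (adjusted p = 0.0600 and 0.0895) or replicate 2 (0.0945 and 0.124), and Gclm also did not pass without mutant oxLDL replicate 1 (0.0811) or with library size alone in place of TMM (0.0515). Gsta3, whose genotype difference changed size with oxLDL, gave 1.48 ± 0.52 in this model and did not pass (adjusted p = 0.152).

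**Figure D4:**
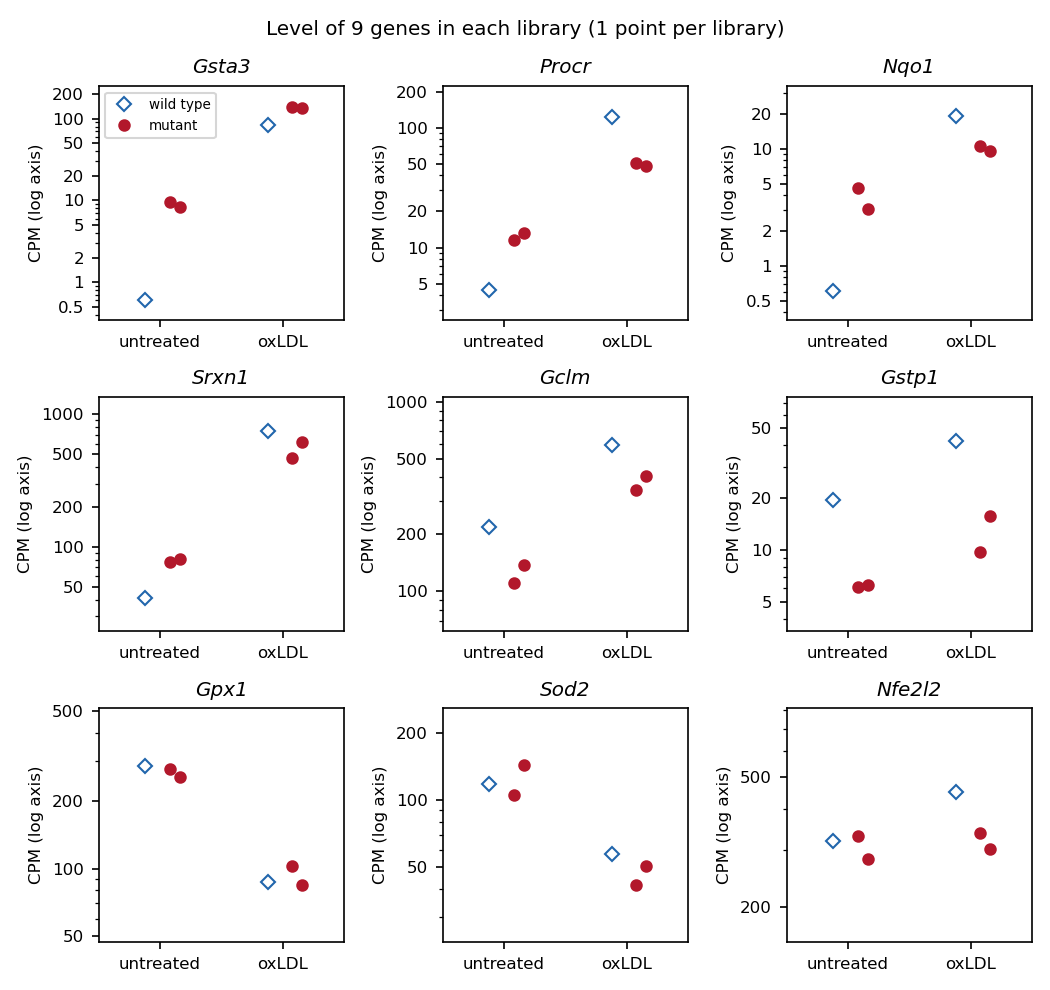
CPM of 9 genes in each library on log axes, with wild type as open diamonds (1 library per treatment) and the mutant as filled circles (2 libraries per treatment). Procr, Nqo1 and Srxn1 cross between treatments, Gsta3 is higher and Gstp1 and Gclm are lower in the mutant in either treatment, Gpx1 and Sod2 go down, and Nfe2l2 stays between 281 and 451 CPM.

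Further genes of these pathways came from a list of 89 names, of which 77 were tested. In the mutant 26 rose, 5 fell and 46 did not pass (16.5% and 19.1% of all tested genes rose and fell), with a median log2 fold change of 0.29. Slc40a1, the iron exporter gene, measured 17.8 and 7.22 CPM in mutant untreated against 291 and 184 CPM with oxLDL, a log2 change of 4.27 ± 0.44 (adjusted p = 0.00153). Slc7a11, the cystine importer gene that feeds glutathione synthesis, measured 11.6 and 17.5 CPM against 240.0 and 160 CPM, a log2 change of 3.77 ± 0.28 (adjusted p = 0.000579). Chac1, which degrades glutathione, rose by 2.78 ± 0.32 on the log2 scale (adjusted p = 0.00208), and Ugt1a6a, a glucuronosyltransferase gene whose exons overlap those of its family, by 2.35 ± 0.22 (adjusted p = 0.00109). On the lower side the glutaredoxin gene Glrx fell from 368 and 507 CPM to 47.2 and 47.7 CPM, and in wild type it measured 554 CPM without and 64.2 CPM with oxLDL. Sesn1, a sestrin gene, Txnip, whose product binds and inhibits thioredoxin, and Akr1b10, an aldo-keto reductase gene, fell by 2.12 ± 0.18, 1.51 ± 0.13 and 0.54 ± 0.11 on the log2 scale. In the difference of responses 1 of the 77 was called (0.489% of all tested genes), the aldo-keto reductase gene Akr1b8. It measured 31.4 and 30.7 CPM in mutant untreated, 51.2 and 42.2 CPM in mutant oxLDL, 13.8 CPM in wild type untreated and 116 CPM in wild type oxLDL, a difference of -2.48 ± 0.22 (adjusted p = 0.0172). Like Procr it was above wild type before oxLDL and below it after.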

How the data were processed

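RNA of 6 libraries was measured, 1 column each, grouped by their titles. Per gene, the deposited values are expected counts made with Bowtie2 2.1.0 and RSEM 1.2.15, per the submitters' processing notes. The notes name build hg19 although the gene names are mouse, and the mouse build that was used is therefore unclear: not given in the sources used here. The authors also deposited a TMM-normalised signal made with edgeR, per the same notes. Within a tolerance of 1e-06, 100% of its values were whole multiples of 1 read. The CPM used here differ from that signal by less than 1% in every library. Expected counts were rounded, 12689 of 17143 genes with any count passed filterByExpr (minimum count 10), and edgeR 4.0.16 (R 4.3.3) quasi-likelihood tests were fitted with TMM factors, 4 group means (an additive model for genotype across treatments) and Benjamini-Hochberg adjustment over all tested genes. SE is the log2 fold change divided by the square root of F. Wild-type fold changes by size used a prior count of 2. DESeq2 1.42.0, limma 3.58.1 (log2 of the deposited signal plus 1), other scalings and left-out libraries were alternatives. Counts give the precision of single libraries, and PCR duplicates are not separable, so intervals cover counting error only. Shared 75-base stretches came from GENCODE M21 transcripts, and promoters from RefSeq. The members and lists were chosen with earlier results of these data known. Text names the 12 largest changes that pass in the mutant, all members that fell or did not pass, genes called between genotypes, Nfe2l2, Keap1 and near-identical pairs, and the 4 largest changes that pass in each direction among the further pathway genes; other members are given for completeness of their role.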

Additional observations from a re-analysis of the deposited data

Results flagged for a closer look

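The oxLDL response of 2 of the 40 genes differed between genotypes by the test of the difference itself, the interaction of genotype and treatment in edgeR, which called 0.489% of all tested genes. For Gsta3 the difference, mutant minus wild type, was -3.13 on the log2 scale, with 9.53 and 8.35 CPM in mutant untreated against 0.614 CPM in wild type untreated, and the call was lost without mutant untreated replicate 1 (adjusted p = 0.0501). For Procr it was -2.81, with 50.9 and 47.7 CPM in mutant oxLDL against 124 CPM in wild type oxLDL. The wild-type side of each rests on 1 library per treatment. The wild type untreated library held pancreatic marker transcripts at 290 CPM and neutrophil markers at 39.4 CPM. The mutant oxLDL libraries held pancreatic markers at 215 and 171 CPM, against 1.98 CPM in wild type oxLDL and 3.35 and 3.47 CPM in mutant untreated. Pancreatic transcripts thus divided the libraries along the same contrast as the interaction. The part of these transcripts was not tested.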

How the results depend on the processing

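The count of 33 called genes with oxLDL in the mutant stayed between 31 and 34 over all alternatives run, those with 1 mutant library left out among them. The count of 30 genes by size in wild type was 29 or 30 over the alternatives that also went by size. Fits that call wild type by adjusted p use another criterion and are not part of that range. No called log2 fold change of the 40 genes changed sign. Comparisons that use the single wild-type libraries moved more, and the cause was not tested. For the difference of responses (2 genes) the count was 6 with DESeq2, 11 without a filter on low counts and 4 with the replicate block, and 1 to 4 with 1 library left out. For genotype with oxLDL (1 gene) it was 9, 14 and 9 in the same order, and 0 to 2 with 1 library left out, where 22 genes still had an unadjusted edgeR p under 0.05 at the count of 0 (13.3% of all tested genes). For genotype in untreated cells (8 genes) it was 1 to 9 with 1 library left out. For genotype across treatments (2 genes) it was 7 with DESeq2, 8 without the filter, 1 with library size alone in place of TMM, and 0 to 2 with 1 library left out, where 11 genes had an unadjusted edgeR p under 0.05 at each count of 0 (18.6% and 18.7% of all tested genes). Library size alone, chosen after seeing the data, moved the median of all genes to 0.13 in untreated cells, and the reads recovered from the deposited signal, also added then, called 4515 genes with oxLDL in the mutant, as the counts did. Over all tested genes, with 1 library left out, calls ranged from 2626 to 4057 (main 4515) with oxLDL in the mutant, 19 to 246 (62) for the difference of responses, 80 to 1822 (896) and 5 to 473 (61) for genotype without and with oxLDL, and 8 to 724 (514) across treatments. In the order DESeq2, no filter and replicate block they were 221, 546 and 162 for the difference, 391, 974 and 462 for genotype with oxLDL, 1513, 1387 and 344 across treatments, and for genotype without oxLDL 2435 without the filter and 1870 with the block. The titles give mutant libraries of both treatments the numbers 1 and 2 but do not say that a number is an animal, and deviations of same-numbered libraries had a correlation of 0.204 over 12689 genes from 2 pairs, so the block was an alternative only. With the replicate block Cd93 passed with oxLDL in the mutant (adjusted p = 0.00580), and Nqo1 and Srxn1 passed in the difference of responses (0.0221 and 0.0315). Depth limits Gsta4, Gsta3 and Nqo1, with 0, 12 and 12 counts in wild type untreated.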
